A study of Mus musculus with 8 samples.

Results

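The Kruppel-like factors and Bcl6 were examined as 9 genes, Bcl6, Klf2, Klf3, Klf4, Klf6, Klf9, Klf10, Klf13 and Klf15, among 18193 genes on the array. They were taken by name, as transcription factors that include known FoxO targets, with every probe set that the platform annotation gives to each of them. That gave 29 of the 45037 probe sets tested. RNA came from secondary neurospheres of the forebrains of FoxO3 null (FoxO3-/-) and wild type (FoxO3+/+) mice. Neurospheres are clumps of dividing neural stem and progenitor cells that float in culture. The mice of both groups were of the FVB/N strain. Cells of both groups grew in medium with 20 ng/ml bFGF, 20 ng/ml EGF and B27 supplement, and spheres were collected on day 6. The 4 FoxO3 null and 4 wild type Affymetrix Mouse430_2 arrays are split evenly over set 1 and set 2, with 2 of each genotype in both. What distinguishes the sets, the deleted part of Foxo3 and the age of the mice are not given in the labels. Nor is it given whether arrays that share set and genotype are separate cultures, so the p-values measure a spread that may be technical.

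Values are RMA log2 expression values, and each change is the log2 difference, FoxO3 null minus wild type, fitted with limma with set as a term. To pass, a probe set needed a Benjamini-Hochberg adjusted p below 0.05 over all 45037. The brightest Foxo3 probe set, 1434831_a_at, read 8.86 to 9.14 in FoxO3 null and 10.00 to 10.32 in wild type arrays, and a second, 1434832_at, was lower by a similar amount (-1.07 ± 0.10 (SE)). The dim 1450236_at went the other way, with 5.49 to 5.63 in FoxO3 null and 5.06 to 5.49 in wild type arrays (0.33 ± 0.08, limma adjusted p = 0.11). Arrays correlated at 0.996 or more within sets and at 0.991 or less between sets, and the leading principal component carried 65.2% of the variance. Neural stem and progenitor markers were bright, with 3 of 21 probe sets below the median level of the table, while 8 of 10 endothelial and 8 of 10 microglial and macrophage probe sets lay below it. Array medians lay between 6.27 and 6.31, and precision is limited by having 8 arrays.

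Kruppel-like factors are DNA-binding proteins with zinc fingers near the C-terminal end, which bind CACCC and GC boxes in the control regions of genes. Some members, such as Klf3, mostly repress by recruiting CtBP, and others activate or repress depending on their partners, so that the members balance one another between proliferation, quiescence and differentiation. BCL6 is a zinc finger repressor of a different family, with a BTB domain that recruits corepressors; it holds B cells in the germinal centre state and, in the mouse cortex, promotes neuronal differentiation by repressing Hes5. FoxO proteins are forkhead transcription factors that Akt, downstream of insulin and growth factors, keeps in the cytoplasm, and in lymphocytes Klf2 and Bcl6 are known to be switched on by them.

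The upstream sequence of Klf9, the one member with probe sets that passed, is printed with those of Klf13, a close relative in the family, and of Klf4, the only other member with the letters TGTTTA. They are the 250 bases before each gene's start from RefSeq (GRCm38.p6), 5′ to 3′ in the direction of the gene, with capitals for the forkhead letters TGTTTA, the longer TGTTTAC where present, and the box CACCC, on either strand. Klf9 lies on the plus strand at chr19:23140976-23141225, Klf13 on the minus strand at chr7:63938916-63939165 and Klf4 on the minus strand at chr4:55532476-55532725.
Klf9: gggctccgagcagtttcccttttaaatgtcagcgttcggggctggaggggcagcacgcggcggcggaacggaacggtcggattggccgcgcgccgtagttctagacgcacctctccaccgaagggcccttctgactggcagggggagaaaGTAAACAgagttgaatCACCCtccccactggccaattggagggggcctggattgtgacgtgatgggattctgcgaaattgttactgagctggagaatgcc
Klf13: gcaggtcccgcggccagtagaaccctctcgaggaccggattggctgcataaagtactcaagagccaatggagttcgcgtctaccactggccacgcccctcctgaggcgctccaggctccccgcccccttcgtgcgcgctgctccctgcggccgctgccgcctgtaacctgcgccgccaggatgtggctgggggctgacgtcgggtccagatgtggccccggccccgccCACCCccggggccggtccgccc
Klf4: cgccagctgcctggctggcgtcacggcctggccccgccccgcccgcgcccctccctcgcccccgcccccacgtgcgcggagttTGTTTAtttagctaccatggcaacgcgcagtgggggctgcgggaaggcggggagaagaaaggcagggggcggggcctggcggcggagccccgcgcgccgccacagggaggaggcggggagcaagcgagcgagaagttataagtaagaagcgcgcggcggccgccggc

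In Klf9 the 7-letter FoxO core TGTTTAC stands on the opposite strand, as GTAAACA, 100 to 94 bases before the start. It is the only one of the members' 9 windows, each of 300 bases with 50 past the start, that holds it. Over all 32851 RefSeq windows of that length, 3.65% hold TGTTTAC. The 6-letter TGTTTA, part of that core, is in 13.4% of windows and in the members Klf9 and Klf4. A CACCC box, the kind of site that Kruppel-like factors bind, is in 57.5% of all windows and in 6 of the members' 9, and Klf9 has one 84 to 80 bases before its start. The GC box CCGCCC is in 7 of the members' 9 windows and in 35.7% of all. The E-box CACGTG, at which clock proteins can bind, is in 4 of the members' 9 and in 7.15% of all. The letters TGACG are in 7 of the 9 and in 20.8% of all, and TTCNNNGAA in 3 of the 9 and in 8.3%. The insulin response letters CAAAACAA are in 0 of the 9 and in 2.51% of all. The members' 250-base stretches are 54.8% to 78.4% G and C, and all windows were not matched to them in this. Windows were found for 8 of the 9 members, Bcl6 with 2 starts and Klf10 with none; 13 motifs were searched, and a match describes letters, not a site in use.

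Klf9 was lower in FoxO3 null spheres, and the other 8 genes had no probe set that passed. Of the 29 member probe sets, 4 passed, where 0.802% of all probe sets did. All 4 were Klf9 and fell, where 0.586% of all fell; 0 of the 29 rose, where 0.215% of all rose. By gene, 1 of 9 had a probe set that fell and 0 of 9 one that rose, where 1.04% of all genes had a falling and 0.412% a rising one. The median change of the 29 was 0.02, beside 0.01 over all probe sets. Of the changes 14 of 29 were negative, where 45.3% of all were.

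Klf9, on chromosome 19 from 23141226 to 23168129 (GRCm38.p6), encodes a factor induced by thyroid hormone and glucocorticoids that is linked to the maturation of neurons and oligodendrocytes. Probe set 1456341_a_at, the brightest of its 7, read 11.63 and 11.54 in set 1 and 11.68 and 11.77 in set 2 in FoxO3 null arrays, against 11.80 and 11.94 in set 1 and 12.32 and 12.24 in set 2 in wild type arrays. Every FoxO3 null array lay below every wild type array. It averaged 11.66 ± 0.10 in FoxO3 null and 12.07 ± 0.25 in wild type arrays (SD, n = 4 each) and fell by 0.42 ± 0.07 (SE, limma adjusted p = 0.0282), to 74.8% of the wild type level. Probe set 1428288_at read 11.04 and 11.03 in set 1 and 10.99 and 11.09 in set 2 in FoxO3 null arrays, against 11.49 and 11.19 in set 1 and 11.58 and 11.55 in set 2 in wild type arrays. These groups did not overlap either. It fell by 0.42 ± 0.08 (adjusted p = 0.0394), to 74.9%.

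The other Klf9 probe sets that passed differed between sets by about as much as between genotypes or by more, and their groups overlapped when sets were pooled and separated within each set. Probe set 1436763_a_at read 7.88 and 7.96 in set 1 and 8.41 and 8.56 in set 2 in FoxO3 null arrays, against 8.19 and 8.23 in set 1 and 9.27 and 9.19 in set 2 in wild type arrays. It fell by 0.52 ± 0.09 (SE, limma adjusted p = 0.0309). Probe set 1422264_s_at read 5.09 and 5.48 in set 1 and 5.93 and 5.94 in set 2 in FoxO3 null arrays, against 6.01 and 5.91 in set 1 and 6.49 and 6.47 in set 2 in wild type arrays. It fell by 0.61 ± 0.08 (adjusted p = 0.0104), to 65.6%, and is dim, at the 43.7th percentile of all probe sets by mean level; the suffix _s_at marks probes that may match more than 1 transcript. All 7 Klf9 probe sets report on 1 gene in the same RNA, so they are not separate observations of the genotype.

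Of the Klf9 probe sets that did not pass, 1428289_at had a change of -0.31 ± 0.08 (SE, limma adjusted p = 0.114) and 1436952_at one of -0.22 ± 0.07 (adjusted p = 0.231). In both, as in the 4 that passed, the 2 FoxO3 null arrays of a set lay below its 2 wild type arrays, in each set. That order held in 6 of the 7 Klf9 probe sets, where 5.25% of all probe sets have it. The exception, 1452723_at, is at the 19.7th percentile of level, read 4.89 to 5.11 in FoxO3 null and 4.86 to 5.00 in wild type arrays and had a change of 0.07, with a 95% confidence interval from -0.06 to 0.20. An exact permutation test of the difference in means, two-sided, gave p = 0.0286 for 1456341_a_at and 1428288_at over all 70 splits of the arrays, the smallest possible, and p = 0.0556 for these and the other 4 lower probe sets over the 36 splits within sets, again the smallest possible.

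**Figure D1:**
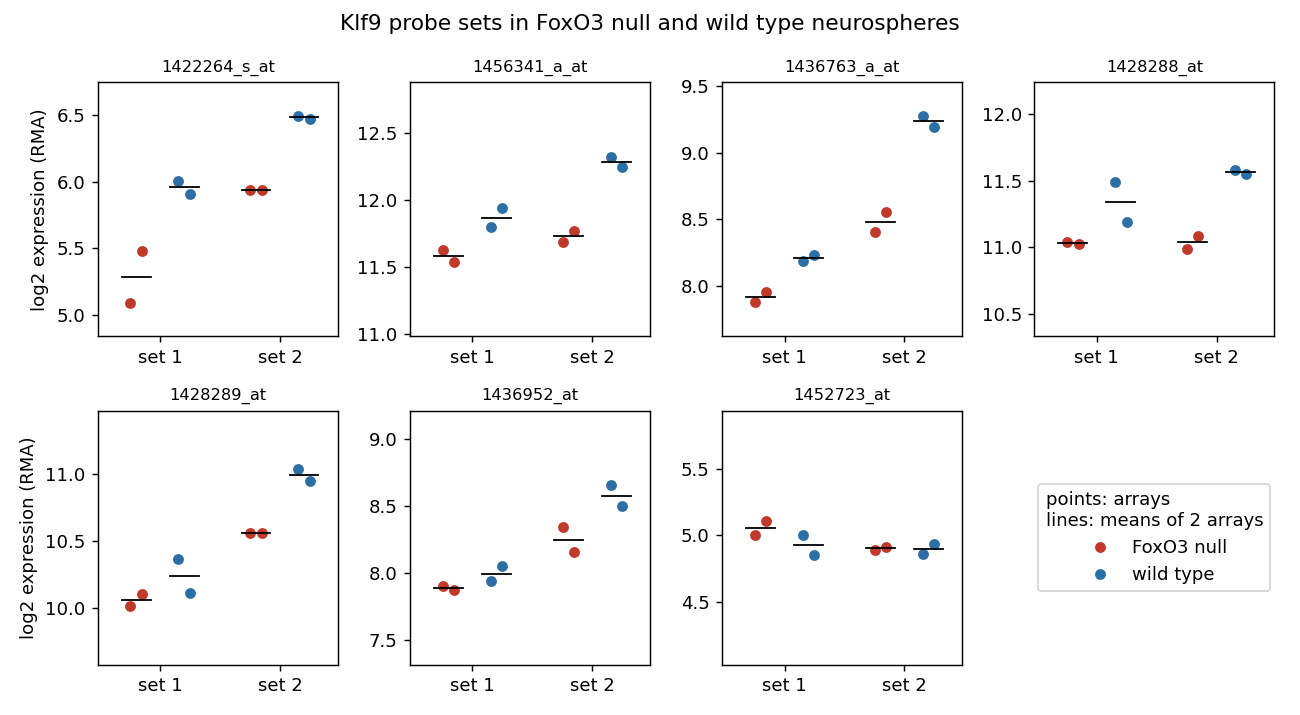
Log2 expression of the 7 Klf9 probe sets (vertical axis, a span of 1.9 in every panel) in each array, by set and genotype, with points for arrays and lines for means of 2 arrays. In 6 probe sets both FoxO3 null points lie below both wild type points in each set, and in 1452723_at they do not.

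The calls for Klf9 depended on the model and on single arrays while the direction did not. Calls over all 45037 probe sets, 361 in the main fit, became fewer in these fits too. In limma with set as a random block 0 of the 29 passed (9 at an unadjusted p under 0.05), and 63 of all (4429 unadjusted). When arrays sharing set and genotype were averaged, 0 of the 29 passed (9 unadjusted), and 39 of all (4320 unadjusted). With 1 array left out, 83 to 271 of all passed. Among the members 1 to 3 probe sets then passed, all of Klf9 and all lower. Member calls numbered 2 without FoxO3 null 1_1 or 1_2, 1 without FoxO3 null 2_1 or 2_2, and 1 without wild type 1_1, 2_1 or 2_2. Without wild type 1_2 there were 3, among them 1428289_at (limma adjusted p = 0.0369). Each of the 4 named above was negative in every alternative fit, and 1422264_s_at passed without each array in turn except wild type 1_1 (limma adjusted p = 0.0568).

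Genes of other groups moved in the same arrays. The Y-linked list (Uty, Kdm5d and Eif2s3y measured) had negative changes in all 9 of its probe sets, with 1 of 9 passing (Uty, -0.42 ± 0.08), and their mean level was 5.64 to 6.19 in FoxO3 null and 6.07 to 6.39 in wild type arrays. A mean was also taken over the brightest probe set of each of the 3 genes. In FoxO3 null arrays it read 7.90 and 8.09 in set 1 and 6.88 and 7.10 in set 2. In wild type arrays it read 8.35 and 8.18 in set 1 and 7.80 and 7.66 in set 2. Both FoxO3 null arrays lay below both wild type arrays in each set. With that mean as a covariate, the 4 Klf9 changes were -0.55, -0.25, -0.14 and -0.16, in order of their p-values. In that fit 0 of the 4 passed (limma adjusted p from 0.499 to 0.939), and 0 of all 45037 probe sets. Because the covariate differed with genotype in each set, that fit cannot tell Y-linked level and genotype apart. The part of sex in these changes was not tested. In the oligodendrocyte lineage list 4 of 18 probe sets fell, of the progenitor genes Pdgfra (-0.67 ± 0.09 (SE)) and Cspg4 (-0.56 ± 0.08) and the lineage factor Sox10 (-0.27 ± 0.05). These are 1 of 3 probe sets of Pdgfra, 2 of 2 of Cspg4 and 1 of 3 of Sox10. In the same list 6 probe sets had positive changes at an unadjusted p under 0.05, against 5 negative ones, where 12.7% of all had either. All 6 were of Mbp, a myelin protein gene named after its values were seen, with changes from 0.44 to 0.51 that did not pass (smallest adjusted p = 0.171). The list's mean level, 8.95 to 9.87 in FoxO3 null and 8.72 to 9.99 in wild type arrays, overlapped between the genotypes, and its summed linear signal ran from 40945 to 94150 in FoxO3 null and from 33071 to 88871 in wild type arrays.

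In the astrocyte list 1 of 21 probe sets fell, which was 1 of 5 of the glutamate transporter gene Slc1a2 (-0.84 ± 0.06 (SE), limma adjusted p = 0.000649). In 2 astrocyte probe sets every FoxO3 null array lay above every wild type array and in 3 below, and changes reached 0.36 upward, none of those passing. For that list the mean level was 8.27 to 8.72 in FoxO3 null and 8.35 to 8.74 in wild type arrays. Among endothelial genes, 1 of 10 probe sets fell, which was 1 of 4 of the VEGF receptor gene Flt1 (-0.71 ± 0.13, at the 49.1th percentile of level). The mean level of the endothelial list was 5.60 to 5.65 in FoxO3 null and 5.62 to 5.81 in wild type arrays. Of the 15 pericyte and fibroblast probe sets the 2 that fell were those of Cspg4. None of the 21 neural stem and progenitor, 18 neuron, 10 microglial and macrophage and 4 ependymal probe sets passed. For actin, the excess of the 3′ over the 5′ control probe sets, a sign of RNA quality, was 0.33 to 0.49 in FoxO3 null and 0.36 to 0.54 in wild type arrays. In set 1 it was lower in both FoxO3 null arrays (0.47 and 0.49) than in both wild type arrays (0.54 and 0.52), and so was the same measure of Gapdh (-0.10 and -0.09 in FoxO3 null, -0.08 and -0.07 in wild type arrays). In set 2 the genotypes overlapped in both measures. The RMA scale has no zero, so no marker is listed at 0. Whether fewer cells of a type or less RNA per cell lies behind such a change cannot be told apart in bulk RNA, and the part of these genes and of RNA quality in the fall of Klf9 was not tested.

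In the remaining members, changes of the 22 probe sets lay between -0.22 and 0.22, with 95% confidence intervals reaching from -0.39 to 0.42 at most. The changes closest to the threshold were in Klf10 and Bcl6, both negative. Klf10, first described as an early gene of TGF-beta signalling, has 1 probe set, 1416029_at. It read 11.64 and 11.53 in set 1 and 11.29 and 11.25 in set 2 in FoxO3 null arrays, against 11.77 and 11.63 in set 1 and 11.56 and 11.62 in set 2 in wild type arrays. The groups overlapped in set 1 and separated in set 2, and the change was -0.22 ± 0.06 (SE, limma adjusted p = 0.176); it passed as lower with a variance that follows the level (adjusted p = 0.0393).

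Bcl6, on chromosome 16, had negative changes in both of its probe sets. The brighter, 1421818_at, read 8.52 and 8.51 in set 1 and 8.43 and 8.47 in set 2 in FoxO3 null arrays, against 8.70 and 8.55 in set 1 and 8.87 and 8.64 in set 2 in wild type arrays. Every FoxO3 null array lay below every wild type array, as in 3 of the 29 member probe sets and in 1.33% of all; none of the 29 had the opposite order, which 1.78% of all had. The change was -0.21 ± 0.07 (SE, limma adjusted p = 0.242). Its 95% confidence interval, not adjusted for the number of probe sets, ran from -0.37 to -0.05. Its other probe set, 1450381_a_at, read 6.28 to 6.49 in FoxO3 null and 6.35 to 6.61 in wild type arrays and had a change of -0.15 ± 0.06 (adjusted p = 0.339).

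Klf2, a factor of endothelial cells under flow and of resting T cells, had a positive change. Its probe set 1448890_at read 7.00 and 6.96 in set 1 and 6.73 and 6.70 in set 2 in FoxO3 null arrays, against 6.88 and 6.79 in set 1 and 6.38 and 6.67 in set 2 in wild type arrays. FoxO3 null lay above wild type within each set, by 0.17 ± 0.07 (SE, limma adjusted p = 0.329), and across sets the arrays overlapped. That order within sets held in 2 of the 29 member probe sets, the other being Klf3 1431630_a_at, and in 6.67% of all probe sets. Klf3, the CtBP-binding repressor, had 6 positive and 1 negative change over 7 probe sets, from -0.01 to 0.10, with a smallest adjusted p of 0.438. Klf13, a relative of Klf9 known from T cells and the heart, had 3 positive changes from 0.05 to 0.09 (smallest adjusted p = 0.507), and the upper ends of their 95% confidence intervals lay between 0.16 and 0.21.

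**Figure D2:**
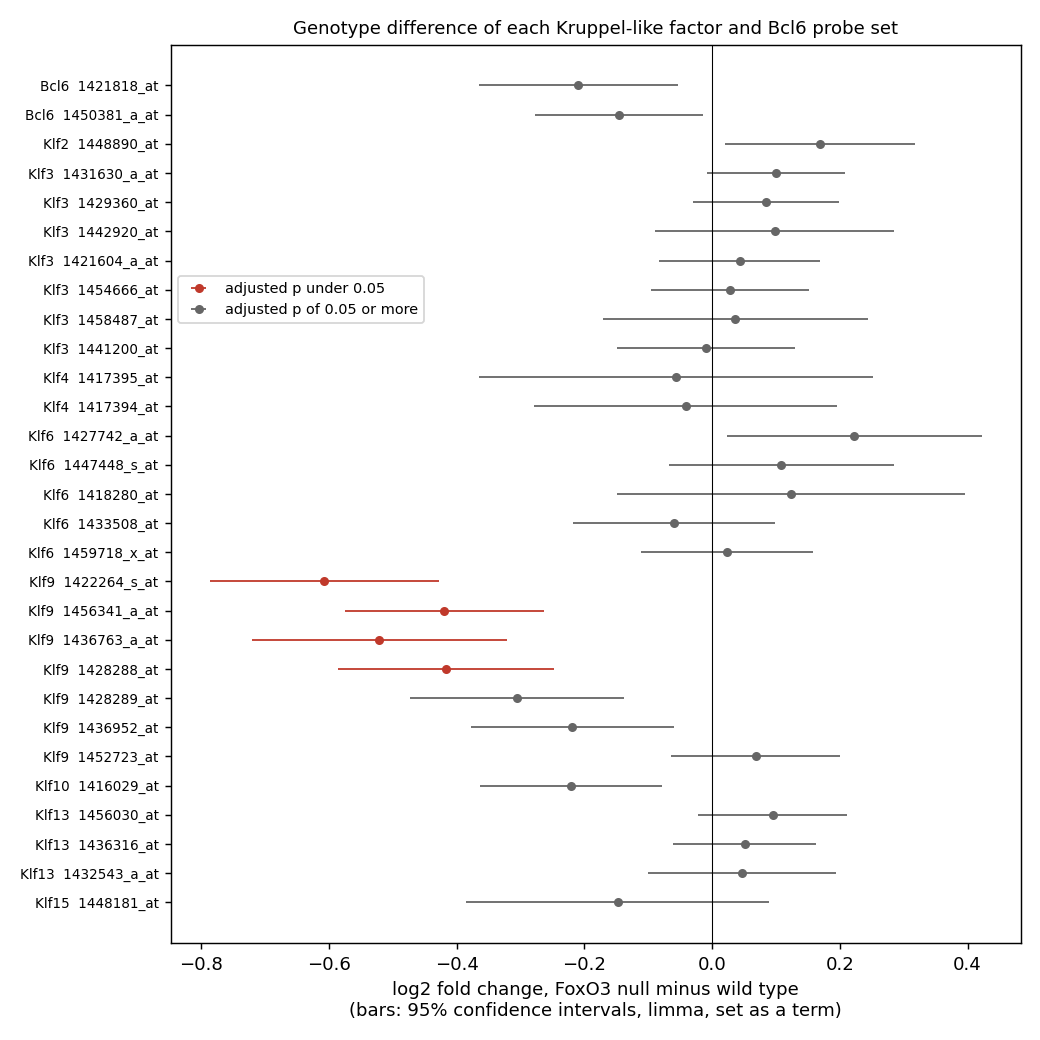
Change of each of the 29 probe sets (horizontal axis, log2, FoxO3 null minus wild type, with 95% confidence intervals from limma), red where the adjusted p is under 0.05. The 4 red points are Klf9 probe sets between -0.61 and -0.42, and the 22 probe sets of the other genes lie between -0.22 and 0.22.

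Klf6, a factor induced early after injury, and Klf15, a glucocorticoid-induced regulator of amino acid catabolism, had unequal changes in the 2 sets. The Klf6 probe set 1427742_a_at read 8.24 and 8.50 in set 1 and 9.20 and 9.11 in set 2 in FoxO3 null arrays, against 8.30 and 8.40 in set 1 and 8.74 and 8.72 in set 2 in wild type arrays. Its change was 0.02 in set 1 and 0.43 in set 2, and 0.22 ± 0.09 (SE, limma adjusted p = 0.338) over both; the interaction was 0.40 ± 0.14 (adjusted p = 0.495). The other 4 Klf6 probe sets had changes from -0.06 to 0.12. The Klf15 probe set 1448181_at read 8.38 and 8.59 in set 1 and 8.57 and 8.75 in set 2 in FoxO3 null arrays, against 8.79 and 8.81 in set 1 and 8.85 and 8.42 in set 2 in wild type arrays. The groups separated in set 1 and overlapped in set 2, where wild type array 2_2 was the lowest of the 4, and the change over both was -0.15 ± 0.11 (adjusted p = 0.639), with an interaction of 0.34 ± 0.19 (adjusted p = 0.752).

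Klf4, one of the factors used to reprogram cells to pluripotency, had changes of opposite sign in the 2 sets in both of its probe sets. Probe set 1417394_at read 7.59 and 7.62 in set 1 and 8.33 and 8.53 in set 2 in FoxO3 null arrays, against 8.06 and 7.67 in set 1 and 8.29 and 8.23 in set 2 in wild type arrays. Probe set 1417395_at read 5.63 and 6.19 in set 1 and 7.17 and 7.24 in set 2 in FoxO3 null arrays, against 6.26 and 6.30 in set 1 and 6.88 and 7.02 in set 2 in wild type arrays. In each, FoxO3 null lay below wild type in set 1 and above it in set 2. The change was -0.26 in set 1 and 0.18 in set 2 for 1417394_at, and -0.36 and 0.25 for 1417395_at. The difference between these changes did not pass the interaction test (0.44 ± 0.17 (SE), limma adjusted p = 0.604, and 0.62 ± 0.21, adjusted p = 0.51). Opposite signs were not particular to Klf4. They were seen in 8 of the 22 probe sets of members other than Klf9, those of Klf4 included. Klf13 1432543_a_at also separated in both sets, with -0.08 in set 1 and 0.17 in set 2.

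**Figure D3:**
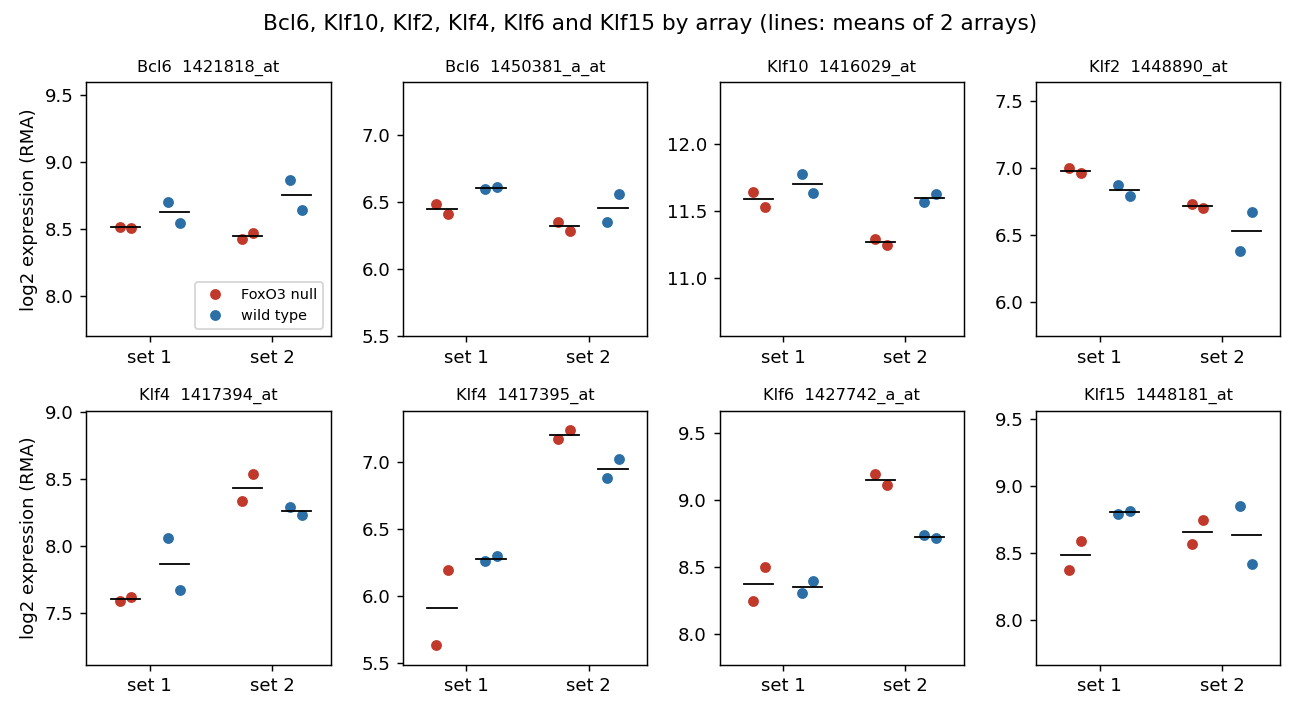
Log2 expression (vertical axis, a span of 1.9 in every panel) of 8 probe sets of Bcl6, Klf10, Klf2, Klf4, Klf6 and Klf15 in each array, by set and genotype, with points for arrays and lines for means of 2 arrays. FoxO3 null points lie below wild type points in every set only for Bcl6, above them in both sets for Klf2, and on opposite sides in the 2 sets for Klf4.

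Within single sets of 2 arrays against 2, 0 of the 29 member probe sets passed in set 1 (limma), where 0.0933% of all passed. There 5 of the 29 had an unadjusted p under 0.05, as did 3905 of all 45037. In set 2, 1 member probe set passed, where 0.324% of all did. There 10 of the 29 had an unadjusted p under 0.05, as did 4995 of all 45037. The call in set 2 was Klf9 1436763_a_at, which fell by 0.75 ± 0.09 (SE, adjusted p = 0.0335), beside a change of -0.29 in set 1. The Klf9 change was more negative in set 2 than in set 1 in 5 of its 6 lower probe sets. For the genotype-by-set interaction 0 of 29 passed, beside 0.0688% of all (limma), and 6 of 29 had an unadjusted p under 0.05, where 7.54% of all did: both of Klf4, 1436763_a_at and 1456341_a_at of Klf9, 1427742_a_at of Klf6 and 1432543_a_at of Klf13. A difference in the size of the Klf9 change between sets was therefore not shown, the largest being -0.46 ± 0.12 (adjusted p = 0.318).

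**Figure D4:**
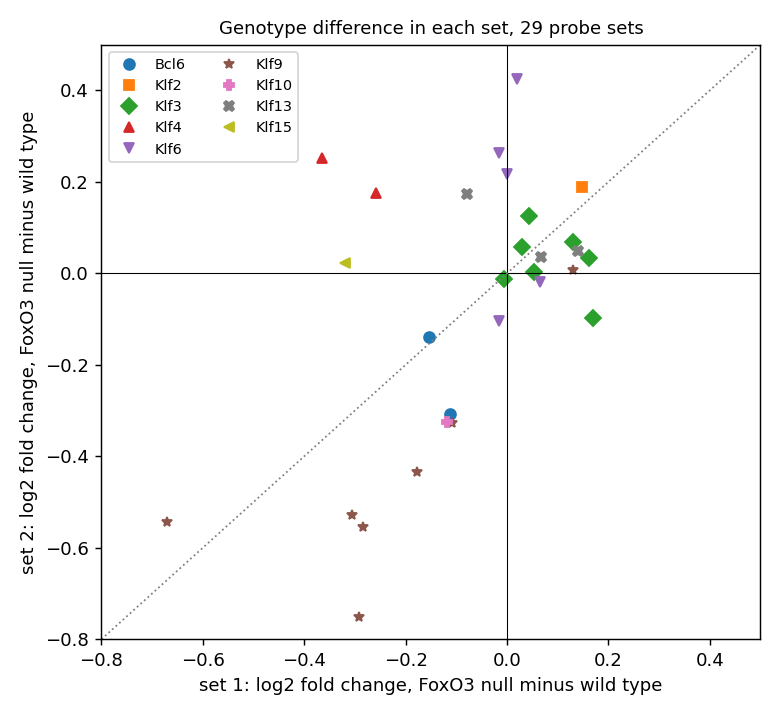
Change of each of the 29 probe sets in set 1 (horizontal axis) and set 2 (vertical axis), as log2 FoxO3 null minus wild type, with 1 symbol per gene and a dotted line of equal change. Klf9 and Bcl6 probe sets lie in the lower left, except Klf9 1452723_at, as do that of Klf10, Klf3 1441200_at and Klf6 1433508_at. Both Klf4 probe sets lie in the upper left, with -0.26 and -0.36 in set 1 and 0.18 and 0.25 in set 2. Klf13 1432543_a_at, Klf15 1448181_at, Klf6 1418280_at and Klf6 1447448_s_at lie there too.

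The sets themselves differed more than the genotypes in most of these genes. Of the 29 probe sets, 17 passed for the set term of the same fit, 14 higher and 3 lower in set 2, where 38.4% of all passed, 19.5% higher and 18.9% lower. Klf4 was higher in set 2 than in set 1 by 0.98 ± 0.14 and 0.61 ± 0.11 (SE, limma adjusted p = 0.000419 and 0.00145). Klf9 was higher in set 2 in 5 of 7 probe sets, by up to 0.79 ± 0.09 in 1436763_a_at. Klf6 was higher in 2 of 5, by 0.58 and 0.79, and Klf3 was higher in 4 of 7 and lower in 1. Set 2 minus set 1 was -0.29 ± 0.07 for Klf2 and -0.21 ± 0.06 for Klf10, both lower in set 2, and neither Bcl6 probe set nor that of Klf15 passed.

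No probe set of the other Klf and Sp genes passed. Over all probe sets, 12.7% had an unadjusted p under 0.05 in the limma genotype comparison. Of 19 probe sets of 8 other Klf genes (Klf8 was not analysed here), 0 passed in limma, with 1 at an unadjusted p under 0.05, a median of 0.03 and changes from -0.19 (Klf12, adjusted p = 0.271) to 0.14. Of 13 probe sets of 7 Sp genes, zinc finger factors that bind GC boxes, 0 passed and 1 had an unadjusted p under 0.05, with a median of 0.05; that 1 was Sp8, with a change of 0.46 ± 0.14 (SE, adjusted p = 0.19). Among cofactors and modifiers of Klf proteins 0 of 31 probe sets passed (7 at an unadjusted p under 0.05, median 0.01). The smallest p-values there were those of the acetyltransferase gene Crebbp, with a change of 0.40 ± 0.10 (SE, adjusted p = 0.106), and the deacetylase gene Hdac1, with 0.17 ± 0.05 (adjusted p = 0.23). Among genes known to be regulated by these Klf factors 0 of 34 probe sets passed (4 at an unadjusted p under 0.05, median 0.01), and the smallest p-values were those of Aass, of lysine breakdown, with a change of 0.24 ± 0.07 (adjusted p = 0.175), and of the stem cell factor Sox2, with -0.26 ± 0.08 (adjusted p = 0.183).

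Around Bcl6, genes it is known to repress went both ways. Of 48 probe sets 1 rose and 2 fell, with a median of -0.03. At an unadjusted limma p under 0.05, 4 of the 48 were higher and 10 lower, where 12.7% of all were either. Prdm1, which encodes the repressor BLIMP1 and is a classic target of BCL6, rose by 1.00 ± 0.11 (SE, limma adjusted p = 0.005), with 7.11 ± 0.34 in FoxO3 null and 6.11 ± 0.23 in wild type arrays (SD, n = 4 each). It lies on chromosome 10 from 44437174 to 44528558, 2.16 megabases from Foxo3, while no member lies on chromosome 10; the part of that position in its rise was not tested. Id2 encodes a partner that keeps bHLH factors off DNA; 2 of its 3 probe sets passed as lower, with a change of -0.64 ± 0.10 in the one with the smallest p. BCL6 corepressors and partners had 0 of 28 probe sets passing (2 at an unadjusted p under 0.05, median 0.02), the smallest p-values being at Hdac7, with a change of 0.15 ± 0.06 (adjusted p = 0.294), and Bcorl1, with -0.13 ± 0.06 (adjusted p = 0.413).

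Other FoxO target genes fell in 6 of 67 probe sets and rose in 0, with a median of -0.06 and 43 negative changes. At an unadjusted limma p under 0.05, 22 of the 67 were lower and 1 higher, where 12.7% of all were either. In 9 of the 67 every FoxO3 null array lay below every wild type array, where 1.33% of all had that order. Like the other lists, this one was chosen with earlier results of these data known, and its 67 probe sets belong to 27 genes. The shares are therefore descriptive and not a test of FoxO targets. Those that fell took in the IGF1 receptor gene Igf1r (1 of 5 probe sets, -0.42 ± 0.06 (SE), limma adjusted p = 0.0106) and the insulin receptor gene Insr (1 of 3, -0.35 ± 0.06). They also took in the mTORC1 inhibitor Ddit4 (its only probe set, -0.90 ± 0.12) and Sesn1, a stress-induced sestrin (2 of 4, -0.67 ± 0.11 in the one with the smallest p). Klf9's passing changes of -0.42 to -0.61 lay between those of Insr and Ddit4, and those of Klf2 and Bcl6, which are FoxO targets in lymphocytes, did not pass. Among glucocorticoid-responsive genes, a class to which Klf9 and Klf15 belong, 1 of 43 probe sets fell, that of Ddit4, and 0 rose, with a median of -0.06. At an unadjusted limma p under 0.05, 9 of the 43 were lower and 2 higher. In 5 of the 43 every FoxO3 null array lay below every wild type array. Pdk4, which restrains pyruvate oxidation in mitochondria, had a change of -0.76 ± 0.15 (adjusted p = 0.0569).

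The genes whose pattern over the 8 arrays was most like that of Klf9 1422264_s_at, after the mean of each set was subtracted, were Lhfpl3 (Pearson r = 0.992), Dpp6, an auxiliary subunit of potassium channels (r = 0.986), Castor2, of the family of arginine sensors of mTORC1 (r = 0.986), Lrrc4c, a netrin-G ligand of neurons (r = 0.984), and Yae1d1 (r = 0.984). These values describe 8 arrays that share 1 normalization and differ by genotype, and were picked as the highest of all genes. The 5 genes had changes of -0.67, -0.35, -0.53, -0.30 and -0.32, in that order. The other Klf9 probe sets that passed had r of 0.854 (1428288_at), 0.833 (1436763_a_at) and 0.807 (1456341_a_at) with it.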

How the data were processed

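Each of the 8 neurosphere RNA samples was run on an Affymetrix Mouse430_2 array of its own, and the titles gave groups and sets. The deposited values are log2 expression values; per the submitters' processing notes the method was RMA, which subtracts background, quantile-normalizes the arrays and gives 1 value per probe set. Its version and whether all arrays were processed together are not given in the sources used here. RMA shrinks differences at low levels, and quantile normalization removes any shift common to all genes.

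Of 45101 probe sets, 64 controls were left out. Names came from the platform annotation (34945 probe sets with 1 symbol, 932 with several, 9160 with none; 0 changed through Entrez IDs), positions and promoters from RefSeq (GRCm38.p6). The genotype difference was fitted in limma 3.58.1 (R 4.3.3, lmFit and eBayes, two-sided, Benjamini-Hochberg over 45037 probe sets), after a test on simulated data. Lists hold 190 entries, 176 of them measured. The members, lists and named-gene rule (up to 4 passing genes a list by smallest p, or up to 2 genes with the smallest p where fewer than 2 passed; the 5 genes most like the lowest-p member) were chosen with earlier results of these data known. Alternatives covered set, blocks, normalization, dim probe sets, variance, threshold, Y-linked genes and single arrays.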

Additional observations from a re-analysis of the deposited data

Results flagged for a closer look

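In 58 groups of 4 arrays (29 probe sets in each genotype), 3 held an array whose gap to the nearest of the others, as a share of the range, exceeded Dixon's 95% critical value, where chance gives about 1 group in 20. All 3 were wild type arrays of set 2. The Klf15 probe set 1448181_at read 8.42 in wild type array 2_2, against 8.79 to 8.85 in the other wild type arrays. The Klf6 probe set 1447448_s_at read 8.80 in wild type array 2_1, against 8.58 to 8.60. The dim Klf13 probe set 1456030_at read 5.84 in wild type array 2_2, against 5.79 to 5.80. None of these probe sets passed the genotype test with or without any array.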

How the results depend on the processing

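The 4 Klf9 probe sets that passed were negative in every alternative fitted, and no called change among the 29 turned its sign. Of the member probe sets 0 passed in set 1 alone, 0 without set as a term, 0 with set as a random block, 0 when arrays sharing set and genotype were averaged, 0 with no moderation of the variance and 0 with Y-linked expression as a covariate (limma in each; 5, 4, 9, 9, 12 and 1 member probe sets at an unadjusted p under 0.05). Over all 45037 probe sets the unadjusted counts of these fits were 3905, 1894, 4429, 4320, 5134 and 2890. Of the member probe sets 1 passed in set 2 alone, 1 with 1 probe set per gene and 1 with a replicate block of the title numbers. Leaving out 1 array gave 1 to 3. Over all probe sets, 361 passed, and 3 with no set term, 138 with the replicate block, 42 and 146 in set 1 and set 2 alone, 63 with set as a random block, 1354 with set and genotype together as a random block, 39 with averaged arrays, 825 with a variance trend, 0 with no moderation and 0 with the Y-linked covariate (5134 and 2890 unadjusted), 714 at an adjusted p under 0.1, and 83 to 271 without 1 array. With set and genotype together as a random block, 5 member probe sets passed, and the correlation within blocks was estimated at -0.264. A negative correlation narrows the standard errors of the genotype difference, so the larger counts of that fit are not stronger evidence. The interaction passed in 31, and in 150 with the trend, 52 at an adjusted p under 0.1 and 4 to 29 without 1 array. Same-numbered arrays did not deviate together (r of 0.07 and -0.06 around the means of set and genotype), so the numbers were not read as pairs. Some of these fits used fewer arrays or genes, and the cause of the differences in calls was not tested. With a variance trend, 1428289_at of Klf9 and 1416029_at of Klf10 passed as lower (adjusted p = 0.0273 and 0.0393). Repeated normalization or centring left the count of member probe sets at 4.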
